A study of Arabidopsis thaliana with 18 samples.

Results

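The genes described here lie, by their locus codes, between AT2G07660 and AT2G07840 on chromosome 2 of Arabidopsis thaliana, where the nuclear genome holds a copy of mitochondrial DNA near the centromere. They were chosen by locus code, from the features of an expression array that are paired with exactly 1 gene, and the brightest feature stood for a gene that has several. This gave 51 of the 16548 genes measured in this way, from 66 features.

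RNA was measured on 18 one-colour arrays in 9 groups of 2. The CRF6oe line was treated with H2O2, treated with the cytokinin benzyl adenine (BA) or left untreated, and so were the crf6 mutant and the wild type (WT), strain Col-0. The gene behind these names, CYTOKININ RESPONSE FACTOR 6, encodes an AP2/ERF transcription factor. Seedlings of every group were 10 days old and floated on 3 mM MES buffer, with 0.2% DMSO in the treatment and control solutions. H2O2 was brought to 20 mM or BA to 2 µM after 1 h, and treatment lasted 6 h. No treatment time is given here for the untreated seedlings. The labels name neither the promoter and the number of lines behind CRF6oe nor the crf6 allele. They do not say whether replicates were grown separately, and a p-value below therefore covers only the spread between these arrays, which may be technical.

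Mitochondrial DNA has moved into plant nuclear genomes many times, and the chromosome 2 copy of Arabidopsis is long and close in sequence to the mitochondrial genome it came from. The mitochondrial genome encodes subunits of the respiratory chain and of ATP synthase, cytochrome c maturation proteins and ribosomal proteins. Polyadenylation of plant mitochondrial RNA is known mainly as a mark for decay, whereas nuclear messenger RNA carries stable poly(A) tails. The labelling began with an oligo-dT primer, per the labels' protocols. A probe in such a copy cannot by itself tell nuclear from mitochondrial transcripts, and the part of each in the values below was not tested.

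The position was checked against gene order in a RefSeq table for TAIR10.1. Of the 51 genes, 49 precede ABCC13 and MCM5 in that order, within or beside a run of genes that share array features with genes of the mitochondrial genome, and the other 2, AT2G07750 and AT2G07760, come after ABCC13 and MCM5. These 2 were therefore not seen to lie in the mitochondrial copy. They were among the dimmest of the 51 and were called in no comparison. All 51 are annotated as protein-coding in the table, which lists 152 loci by code in the interval, 71 of them protein-coding. Another 11 protein-coding loci had only features paired with several genes, and 9 had no listed feature. The table gives the 51 genes no symbol beyond their locus codes, so no function is stated for them.

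The array itself shows the shared origin. Of the features paired with several genes, 32 touch the interval, and 26 of these are paired with a gene of the mitochondrial genome. In all, 13 loci of the interval share a feature with such a gene. Of the 66 features of the 51 genes, 17 are numbered within the run of features paired with a mitochondrial-genome gene alone. They belong to 15 genes and are the brightest feature of 9. Whether they were designed on the mitochondrial genome was not tested. Among the 51, AT2G07773 shares features with rps12, a small-subunit ribosomal protein gene, AT2G07695 with cox2, a subunit of cytochrome c oxidase, and AT2G07785 with nad1, a subunit of complex I, and with rps7, another small-subunit ribosomal protein gene. AT2G07739 shares features with the plastid gene ycf1. Of the 13 genes with over 1 feature of their own, 5 had features with equal values on all 18 arrays, and in 3 of these, AT2G07691, AT2G07707 and AT2G07713, all features were equal, so those features are not separate measurements. The features standing for AT2G07773 and AT2G07678 each equalled 1 further feature, outside those of the interval, on all 18 arrays. What those further features measure was not tested.

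Levels are given on the log2 scale, as read from the range of the deposited values. Probes differ in brightness for reasons other than RNA amount, so levels order the features and not the amounts of RNA of different genes. In WT the 51 genes had a median level of 7.93, with quartiles of 6.53 and 9.46, and 44 of 51 lay above the median of all genes. In crf6 the median was 7.78 with quartiles of 6.47 and 9.62, and in CRF6oe it was 9.06 with quartiles of 8.34 and 9.87. The standard deviation across the 51 genes was 1.91 in CRF6oe, 2.56 in crf6 and 2.51 in WT, so the levels lay closer together in CRF6oe. There, 34 of the 51 lay above the 95th percentile of all genes, against 20 in crf6 and 20 in WT.

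The brightest of the 51 was AT2G07732, at 12.93 and 12.73 in CRF6oe with H2O2, 12.55 and 12.71 with BA and 12.67 and 12.90 untreated, against 12.66 to 12.88 over the 6 WT arrays and 12.53 to 12.90 over the 6 crf6 arrays. AT2G07741 lay between 12.67 and 12.83 in CRF6oe, between 12.63 and 12.76 in crf6 and between 12.59 and 12.69 in WT. Neither was called in any comparison, and their genotype ranges overlapped. AT2G07707, AT2G07751 and AT2G07773 were the next brightest and are described with the genes that were lower in CRF6oe. At the dim end, AT2G07750 spanned 3.25 to 3.95 in CRF6oe, 2.95 to 3.73 in crf6 and 3.22 to 3.58 in WT. AT2G07760 spanned 3.62 to 3.89 in CRF6oe, 3.12 to 4.10 in crf6 and 3.51 to 3.83 in WT. The third of the dimmest genes, AT2G07673, is described below, because it was higher in CRF6oe.

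**Figure D1:**
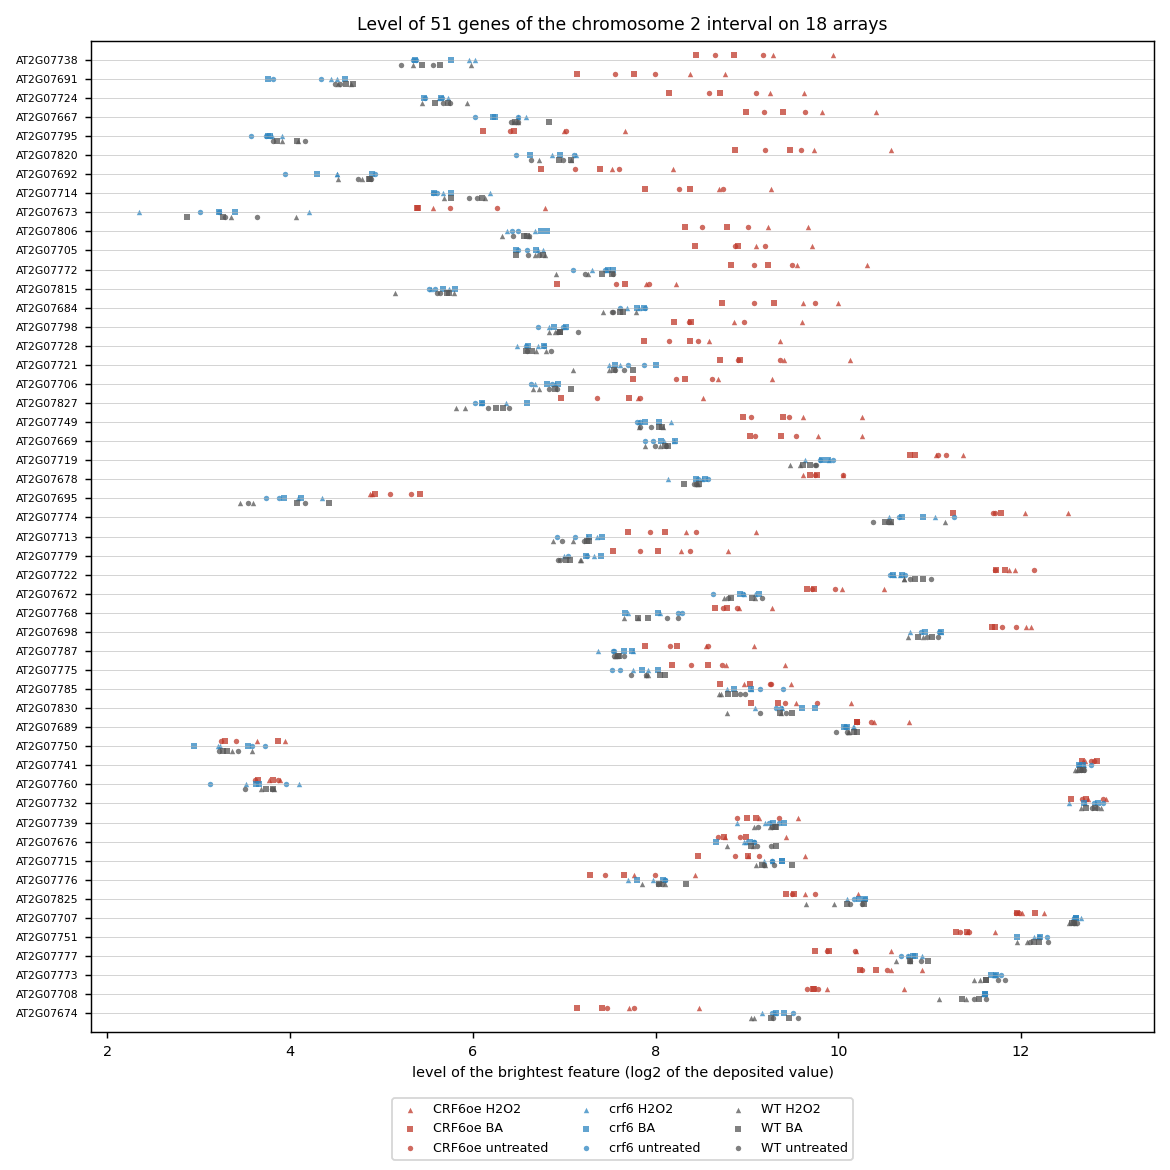
Level (log2 of the deposited value, horizontal axis) of each of the 51 genes on each of the 18 arrays, with CRF6oe above crf6 above WT in each row, triangles for H2O2, squares for BA and circles for untreated seedlings. Genes are ordered by the mean difference between CRF6oe and WT, with AT2G07738 at the top and AT2G07674 at the bottom. In 34 genes every CRF6oe array lies above every WT array, and in 6 every CRF6oe array lies below.

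Across the whole table, arrays of 1 group correlated at 0.977 to 0.991, arrays of WT and crf6 at 0.948 to 0.990, and CRF6oe arrays with the other 12 at 0.917 to 0.947. The CRF6oe arrays thus stood apart as a set, and correlated among themselves at 0.959 to 0.982. Their highest values also differed, at 14.16 to 14.26, against 13.90 to 13.99 on the other 12 arrays. Whether this came from scaling or from the RNA was not tested. The labels give no batch or date, so whether the CRF6oe arrays were handled separately cannot be told apart from genotype. CRF6 (AT3G61630) had no feature of its own, and the genotype labels could not be checked on it. None of 14 markers of green tissue was measured by a feature of its own. Of 8 root markers 5 were measured, and their summed level, as log2, was 10.61 to 12.07 in CRF6oe, 11.19 to 12.89 in crf6 and 11.19 to 12.53 in WT, ranges that overlap. All 5 were lower with H2O2 than untreated in every genotype, with medians of -0.63 in CRF6oe, -0.93 in crf6 and -0.79 in WT. The ranges pool the treatments, so their overlap cannot show that tissue content was alike. AT3G09260, the brightest of the 5, weighs most in the sum. In bulk seedlings, fewer cells of a type and less RNA per cell cannot be told apart.

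The main difference among the 51 genes was between CRF6oe and WT. Over the mean of the 3 conditions, limma called 35 of the 51 higher and 7 lower in CRF6oe at a Benjamini-Hochberg adjusted p under 0.05. Across all 16548 genes 46.4% were called in this comparison, 23.2% higher and 23.1% lower. The median difference of the 51 genes was 1.15 on the log2 scale, against 0.03 for all genes. In 34 of the 51 genes all 6 CRF6oe arrays lay above all 6 WT arrays, and in 6 they lay below, where 8.35% and 11.5% of all genes did so. Of the genes called, 28 were at least 2-fold higher, 13 at least 4-fold higher and 4 at least 8-fold higher, and 3 were at least 2-fold lower. These counts by fold sort the 51 genes only, as the shares of all genes at the same cutoffs are not given here.

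AT2G07738 had the largest difference. It had 9.94 and 9.29 in CRF6oe with H2O2, 8.44 and 8.86 with BA and 8.65 and 9.18 untreated, against 5.35 and 5.98 in WT with H2O2, 5.45 and 5.64 with BA and 5.57 and 5.22 untreated. Every CRF6oe array lay above every WT array by more than 2 log2 units. Over the mean of the conditions it was higher by 3.53 ± 0.16 (SE, 6 arrays each), a fold of 11.5, with a limma adjusted p of 1.61e-09. AT2G07691 had 8.76 and 8.38 in CRF6oe with H2O2, 7.14 and 7.76 with BA and 7.56 and 7.99 untreated, against 4.53 and 4.67 in WT with H2O2, 4.69 and 4.61 with BA and 4.49 and 4.55 untreated. Its WT values spanned only 4.49 to 4.69, while the CRF6oe values spread from 7.14 to 8.76, and the difference was 3.34 ± 0.16, a fold of 10.1, with a limma adjusted p of 2.55e-09.

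AT2G07724 had 9.62 and 9.25 in CRF6oe with H2O2, 8.15 and 8.71 with BA and 8.58 and 9.10 untreated, against 5.94 and 5.44 in WT with H2O2, 5.73 and 5.59 with BA and 5.75 and 5.67 untreated. The ranges were far apart, with a difference of 3.22 ± 0.14 and a limma adjusted p of 1.31e-09. AT2G07667 had 10.41 and 9.82 in CRF6oe with H2O2, 8.99 and 9.40 with BA and 9.19 and 9.64 untreated, against 6.45 and 6.49 in WT with H2O2, 6.46 and 6.84 with BA and 6.42 and 6.50 untreated. It was higher by 3.05 ± 0.14, with a limma adjusted p of 1.61e-09, and again the ranges did not overlap.

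A further 9 genes were at least 4-fold higher in CRF6oe over the mean of the conditions, and in each of them all CRF6oe arrays lay above all WT arrays. AT2G07795 spanned 6.11 to 7.67 in CRF6oe with a median of 6.73, against 3.82 to 4.16 in WT with a median of 3.99. AT2G07820 spanned 8.87 to 10.58 with a median of 9.53 in CRF6oe, against 6.64 to 7.08 with a median of 6.97 in WT. Their differences were 2.79 ± 0.14 and 2.67 ± 0.17. AT2G07692 spanned 6.75 to 8.19 in CRF6oe, against 4.53 to 4.89 in WT, a difference of 2.65 ± 0.19. AT2G07714 spanned 7.88 to 9.26 in CRF6oe, against 5.69 to 6.13 in WT, a difference of 2.59 ± 0.15. AT2G07673 is dim in WT, at 2.87 to 4.07, and spanned 5.39 to 6.79 in CRF6oe, a difference of 2.45 ± 0.28 with the largest error of the 9.

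Among the same 9 genes, AT2G07806 spanned 8.32 to 9.67 in CRF6oe, against 6.32 to 6.62 in WT, with a difference of 2.40 ± 0.13. AT2G07705 spanned 8.43 to 9.71 in CRF6oe, against 6.47 to 6.79 in WT, with a difference of 2.36 ± 0.13. Both pairs of ranges were separated by more than 1 log2 unit. AT2G07772 spanned 8.83 to 10.31 in CRF6oe, against 6.91 to 7.53 in WT, and differed by 2.10 ± 0.14. AT2G07815 spanned 6.92 to 8.22 in CRF6oe, against 5.15 to 5.80 in WT, and differed by 2.09 ± 0.14. The limma adjusted p of these 9 genes ran from 3.89e-09 for AT2G07795 to 4.23e-06 for AT2G07673.

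Another 15 genes were at least 2-fold but less than 4-fold higher. AT2G07684 (1.82 ± 0.14), AT2G07798 (1.78 ± 0.14), AT2G07728 (1.77 ± 0.14), AT2G07721 (1.72 ± 0.14) and AT2G07706 (1.63 ± 0.13) were each higher by more than 3-fold in CRF6oe. AT2G07827 differed by 1.55 ± 0.16, AT2G07749 by 1.49 ± 0.13, AT2G07669 by 1.47 ± 0.12, AT2G07719 by 1.41 ± 0.09 and AT2G07678 by 1.39 ± 0.11. AT2G07695, which is dim, differed by 1.21 ± 0.13, and AT2G07774, which is bright, by 1.20 ± 0.16. AT2G07713 differed by 1.15 ± 0.14, AT2G07779 by 1.09 ± 0.13 and AT2G07722 by 1.03 ± 0.10. In all 15 of these genes every CRF6oe array lay above every WT array. AT2G07669 serves as an example of their array values, with 10.26 and 9.78 in CRF6oe with H2O2, 9.03 and 9.37 with BA and 9.09 and 9.54 untreated, against 7.88 and 8.05 in WT with H2O2, 8.14 and 8.10 with BA and 8.11 and 7.99 untreated.

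The remaining 7 genes called higher differed by less than 2-fold. AT2G07672 spanned 9.66 to 10.50 in CRF6oe, against 8.75 to 9.16 in WT, and differed by 0.99 ± 0.12. AT2G07698, a bright gene, spanned 11.68 to 12.11 in CRF6oe, against 10.76 to 11.09 in WT, and differed by 0.94 ± 0.10. AT2G07768 (0.94 ± 0.11), AT2G07787 (0.83 ± 0.12) and AT2G07775 (0.74 ± 0.12) also had no overlap between the 6 arrays of each genotype. AT2G07785 differed by 0.29 ± 0.11 with a limma adjusted p of 0.049, and its ranges overlapped, at 8.71 to 9.48 in CRF6oe and 8.70 to 8.98 in WT. AT2G07689 spanned 10.20 to 10.77 in CRF6oe and 9.98 to 10.20 in WT, ranges that nearly touch, and differed by 0.25 ± 0.09 with a limma adjusted p of 0.0395. The calls of AT2G07689 and AT2G07785 were lost under several of the alternative settings, and those of the other 40 genes were kept under all settings tried.

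Of the 7 genes called lower, AT2G07674 differed most. It had 8.48 and 7.71 in CRF6oe with H2O2, 7.14 and 7.42 with BA and 7.47 and 7.76 untreated, against 9.08 and 9.04 in WT with H2O2, 9.26 and 9.46 with BA and 9.56 and 9.29 untreated. No CRF6oe array reached the lowest WT array, and the difference was -1.62 ± 0.13, with a limma adjusted p of 2.02e-07. AT2G07708 had 10.72 and 9.88 in CRF6oe with H2O2, 9.72 and 9.73 with BA and 9.66 and 9.78 untreated, against 11.40 and 11.10 in WT with H2O2, 11.54 and 11.35 with BA and 11.62 and 11.48 untreated. Its difference was -1.50 ± 0.13, with a limma adjusted p of 3.15e-07, and H2O2 replicate 1 was the CRF6oe array nearest to WT.

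AT2G07773, which shares other features with rps12, had 10.92 and 10.58 in CRF6oe with H2O2, 10.41 and 10.24 with BA and 10.26 and 10.53 untreated, against 11.55 and 11.48 in WT with H2O2, 11.62 and 11.62 with BA and 11.75 and 11.82 untreated. The ranges did not overlap, and the difference was -1.15 ± 0.10, with a limma adjusted p of 2.47e-07. AT2G07777 spanned 9.74 to 10.58 in CRF6oe, against 10.63 to 10.98 in WT, and differed by -0.74 ± 0.10. AT2G07751 spanned 11.29 to 11.72 in CRF6oe, against 11.96 to 12.29 in WT, and differed by -0.69 ± 0.10. AT2G07707 spanned 11.95 to 12.25 in CRF6oe, against 12.53 to 12.61 in WT, and differed by -0.52 ± 0.09. These 3 genes kept the genotypes apart on every array. AT2G07825 differed by -0.39 ± 0.11, with ranges of 9.43 to 10.22 in CRF6oe and 9.65 to 10.28 in WT that overlapped.

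Over the mean of the conditions 9 genes were not called. AT2G07776 came closest, at -0.31 ± 0.14 with a limma adjusted p of 0.0883, and AT2G07830 followed at 0.28 ± 0.14. AT2G07715 had a difference of -0.22 ± 0.13, AT2G07750 of 0.21 ± 0.13 and AT2G07676 of -0.17 ± 0.13. AT2G07741, AT2G07739, AT2G07760 and AT2G07732 lay within 0.10 of 0. In all 9 the ranges of CRF6oe and WT overlapped.

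**Figure D2:**
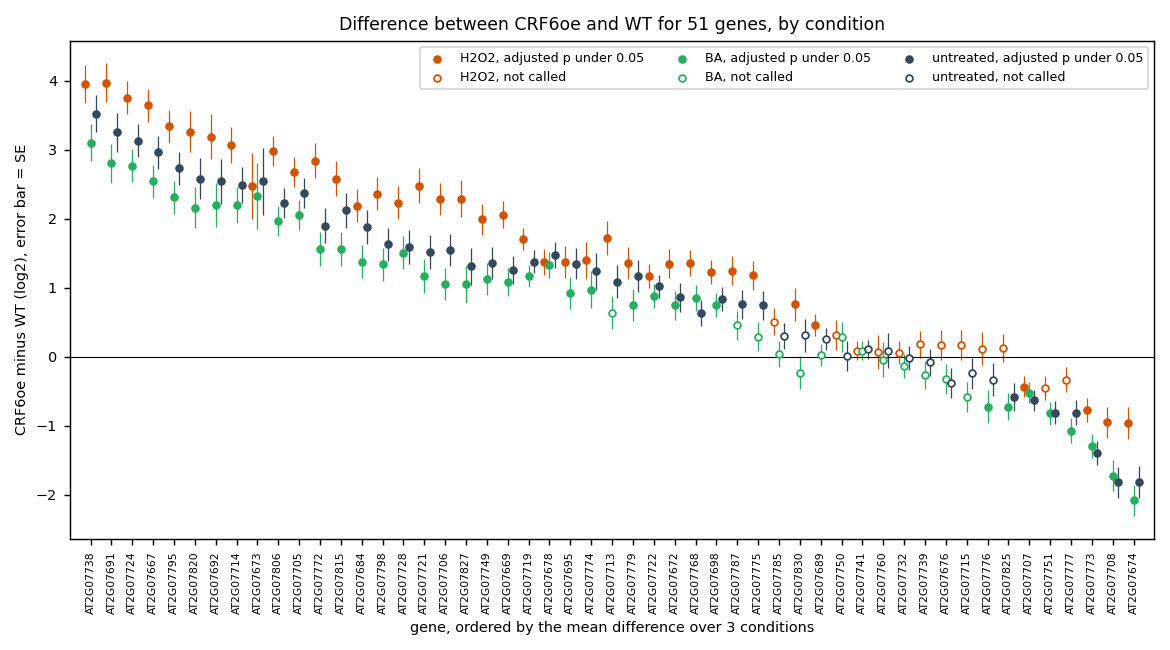
Difference between CRF6oe and WT (log2, vertical axis) for each of the 51 genes with H2O2, with BA and untreated, with the standard error of the fit as error bars and filled points for an adjusted p under 0.05. Genes are ordered by the mean over the 3 conditions, from AT2G07738 at 3.53 to AT2G07674 at -1.62, with the H2O2 points mostly highest. The differences ran from -0.96 to 3.97 with H2O2, from -2.08 to 3.10 with BA and from -1.82 to 3.52 untreated.

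Within single conditions, with 2 arrays on each side, limma called 35 of the 51 higher and 4 lower with H2O2, 30 higher and 8 lower with BA, and 33 higher and 7 lower in untreated seedlings. Of all genes, 29.5% were called with H2O2 (14.6% higher, 14.9% lower), 24.4% with BA (11.7% higher, 12.7% lower) and 25.2% untreated (11.1% higher, 14.1% lower). Median differences of the 51 genes were 1.37 with H2O2, 0.88 with BA and 1.17 untreated, against 0.05, 0.02 and -0.01 for all genes. These 3 comparisons use separate arrays, but all belong to the same 2 genotypes. No gene was called in opposite directions, 30 were called higher in all 3 conditions, 4 were called lower in all 3, and 9 were called in some conditions only. The share of all genes with calls in all 3 conditions is not given here, so these counts cannot be judged against it. The 4 genes called lower throughout were AT2G07674, AT2G07707, AT2G07708 and AT2G07773. All 4 lost the call with H2O2 in a fit of only the arrays compared, and AT2G07707 lost its call in all 3 conditions there and under quantile normalization. Without H2O2 replicate 2 of CRF6oe, AT2G07674, AT2G07707 and AT2G07708 lost the call with H2O2.

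Of the 9 genes called in some conditions only, AT2G07713, AT2G07775 and AT2G07787 missed the call with BA alone, at 0.64 ± 0.24, 0.29 ± 0.21 and 0.46 ± 0.21. AT2G07751, AT2G07777 and AT2G07825 were called lower with BA and untreated but had differences of -0.45, -0.33 and 0.13 with H2O2. AT2G07689 (0.46) and AT2G07830 (0.76) were called with H2O2 alone, and AT2G07776 (-0.72) with BA alone. Of 13 other settings, 5 ended the call of AT2G07689, 3 that of AT2G07830 and 9 that of AT2G07776, the replicate block among the last. AT2G07785 was called in no single condition. AT2G07676, AT2G07715, AT2G07732, AT2G07739, AT2G07741, AT2G07750 and AT2G07760 were called in none of the comparisons, and the other 44 in at least 1.

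The difference between CRF6oe and WT moved with the level of the gene. Level was taken from the 6 crf6 arrays, which enter neither side of this difference. Of the 11 genes with a crf6 level under 6, limma called 9 higher and 0 lower, with a median difference of 2.59. The 2 not called were AT2G07750 and AT2G07760, the genes that follow ABCC13 and MCM5. Of the 18 genes with a level of 6 to 8, 17 were called higher, with a median of 1.68. Of the 10 genes at 8 to 10, 5 were called higher and 1 lower, with a median of 0.28. Of the 8 genes at 10 to 12, 4 were called higher and 4 lower, with a median of -0.07. Of the 4 genes at 12 and above, 2 were called lower and none higher, with a median of -0.28. The share of all genes called at each level is not given here. The counts of calls by level therefore sort the genes of the interval only.

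In order of rising level, 11 of 11, 17 of 18, 6 of 10, 4 of 8 and 1 of 4 of these genes had a difference above 0, where 61.0%, 41.1%, 29.6%, 22.6% and 15.7% of all genes of like level did. All genes at the same levels had medians of 0.10 under 6, -0.15 at 6 to 8, -0.35 at 8 to 10, -0.54 at 10 to 12 and -0.23 at 12 and above, from 10895, 4076, 1370, 137 and 70 genes. The 51 genes thus lay above the median of genes of like brightness in the 4 lower classes, by 2.49 in the lowest. All genes here include the 51 themselves. Of the 70 genes at 12 and above, 4 were of the 51 and 7 were genes of the mitochondrial genome. Most of the 63 plastid-encoded genes also lay in that class, with lower quartiles of 12.56 to 12.61 on crf6 arrays. Its share and median are therefore no independent background. Across genes the correlation between the crf6 level and the difference was -0.67 for the 51 genes, -0.66 for 18 genes of the mitochondrial genome and -0.26 for all 16548, given as descriptions, since genes share the same arrays and are not independent replicates. Genes with a crf6 level under 6 had a median of 7.43 in CRF6oe, against 4.59 in WT, and those at 6 to 8 had 8.80 in CRF6oe, against 7.08 in WT.

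**Figure D3:**
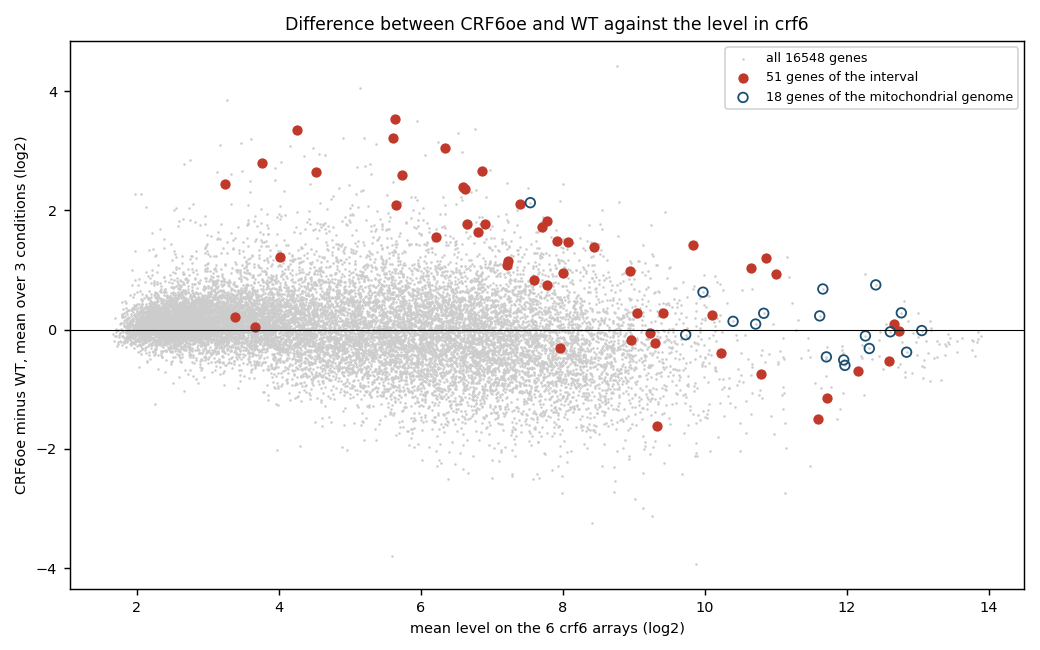
Difference between CRF6oe and WT over the mean of 3 conditions (log2, vertical axis) against the mean level on the 6 crf6 arrays (log2, horizontal axis) for all 16548 genes (grey), the 51 genes of the interval (filled) and 18 genes of the mitochondrial genome (open). The 51 genes lie along a falling band, from a median of 2.59 under a level of 6 to -0.28 at 12 and above.

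Features of 1 gene were compared where there were several. In 12 of the 13 genes with over 1 feature, all features of a gene lay on the same side of 0, the exception being AT2G07739, with differences of -0.05 and 0.46. In AT2G07774 the features differed by 1.20 at a mean level of 11.11 and by 0.63 at 7.75, in AT2G07722 by 1.03 at 11.12 and by 0.24 at 10.04. The features of AT2G07777, at 10.56 and 6.43, differed by -0.74 and -0.80, and those of AT2G07714, at 6.74 and 6.25, by 2.59 and 2.78. A dim feature therefore did not always give a positive difference, nor a larger one than a bright feature of its gene. Each of the genes just named has features both inside and outside the number run of the mitochondrial-genome features. Whether the features of a gene measure the same transcript was not tested.

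Features paired with several genes are given by value only. The feature shared by AT2G07702 and nad1 spanned 8.60 to 9.88 in CRF6oe, against 6.37 to 6.88 in WT, and that shared by AT2G07701 and nad1 spanned 9.61 to 10.49 in CRF6oe, against 7.43 to 7.69 in WT. Each is listed 3 times with equal values. Differences were 2.57 and 2.47, so features that also match a gene of the mitochondrial genome were among those with the largest differences. The feature of AT2G07692 and AT3G47020 differed by 2.59, near the 2.65 of AT2G07692 on its own feature, and the feature of AT2G07749 and AT2G07798 differed by 2.59, above the 1.49 and 1.78 of these genes alone.

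Other shared features went against the feature of the single gene. AT2G07773 was lower in CRF6oe on its own feature, whereas the feature of AT2G07675, rps12 and AT2G07773 spanned 11.67 to 12.20 in CRF6oe, against 10.99 to 11.25 in WT, a difference of 0.80. AT2G07695 was higher on its own dim feature, whereas the brighter feature shared with cox2 spanned 9.17 to 9.99 in CRF6oe, against 9.94 to 10.36 in WT, a difference of -0.59. AT2G07785 shared 3 features with nad1 alone, which differed by 0.12, -0.51 and -0.77. The cob gene, which encodes cytochrome b of complex III, appeared on 3 separate measurements, with differences of 1.21, 0.75 and -0.71. The features shared by AT2G07687 and cox3, a subunit of cytochrome c oxidase, differed by 1.44 and 0.62. Over all 32 features the values fell into 26 separate sets, of which 15 had a higher mean in CRF6oe and 11 a lower mean. CRF6oe lay above WT on every array in 11 sets and below it on every array in 3.

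The genes of the mitochondrial genome itself, measured on features paired with 1 gene, were mostly bright. There were 18 such genes, of which limma called 6 higher and 5 lower in CRF6oe over the mean of the conditions, with a median of 0.04. In single conditions 4 were called higher and 1 lower with H2O2, 4 higher and 2 lower with BA, and 4 higher and 3 lower untreated. The gene ccb206, for a cytochrome c maturation protein, was the dimmest of them and differed most. It spanned 9.57 to 10.09 in CRF6oe, against 7.45 to 7.85 in WT, with no overlap, and was higher by 2.13 ± 0.11 with a limma adjusted p of 4.25e-09. It and the genes named next were picked after their values were seen. Called higher were also rpl2, a ribosomal protein gene, at 0.75 ± 0.08 and nad5 of complex I at 0.68 ± 0.10. Called lower were ccb452 at -0.60 ± 0.08 and nad6 at -0.51 ± 0.10. Of the 18 genes, ccb206 alone had a crf6 level under 8.

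The position on the chromosome was set beside this with the 30 nearest measured genes on each side by locus code. Below the interval limma called 6 of 30 higher and 3 lower in CRF6oe over the mean of the conditions, with a median of 0.14, and above it 9 of 30 higher and 4 lower, with a median of 0.16. These flanking genes were dim, with array medians of 2.66 to 3.58 below and 3.30 to 3.86 above. The share called was thus 9 of 30 and 13 of 30, against 46.4% of all genes, whereas 42 of the 51 genes of the interval were called. Whether the difference between these shares is larger than that between other groups of genes was not tested. Plastid-encoded genes, also organellar, gave 4 of 63 called higher and 34 lower, with a median of -0.24. They were bright, with array medians of 12.73 to 13.11, and level and origin were not separated here.

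**Figure D4:**
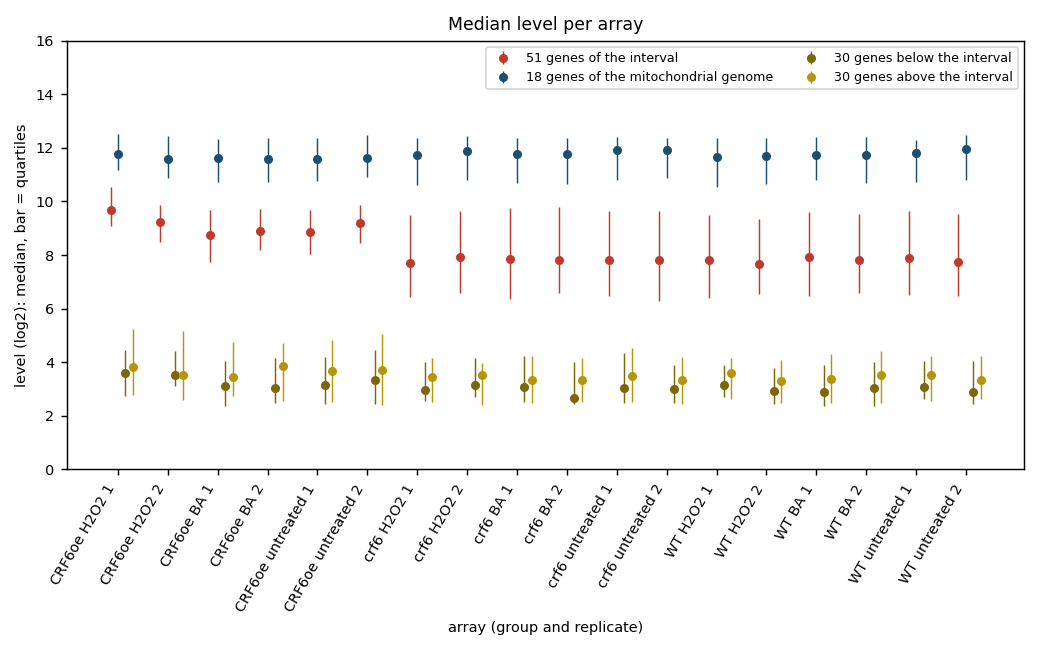
Median level (log2, vertical axis) on each of the 18 arrays (horizontal axis) of the 51 genes of the interval, 18 genes of the mitochondrial genome and 30 genes on each side of the interval, with bars for the quartiles. The medians of the 51 genes lie at 8.73 to 9.67 on CRF6oe arrays and at 7.66 to 7.92 on the other arrays, and those of the other lists overlap between CRF6oe and the other arrays.

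Nuclear genes of mitochondrial function were listed beside the 51 genes by locus code. Of 12 measured genes of the respiratory chain, limma called 8 higher and 0 lower in CRF6oe over the mean of the conditions, with a median of 0.52. Among them, SDH2-2 (AT5G40650), an iron-sulfur subunit of succinate dehydrogenase, was higher by 1.34 ± 0.13, AT3G62400 by 1.39 ± 0.10, AT5G61310 by 1.23 ± 0.14 and AT5G13430 by 1.22 ± 0.12. The others called were AT2G47380 (0.73 ± 0.13), AT5G08690 (0.60 ± 0.14), AT5G13440 (0.44 ± 0.12) and AT4G02580 (0.35 ± 0.09). Of 5 measured genes of the mitochondrial dysfunction response 1, AT5G09570, was called higher, at 0.52 ± 0.14. Of 2 measured genes of mitochondrial RNA and genome upkeep, AT5G14580 was called lower, at -0.90 ± 0.19, and AT5G15700 was not, at -0.19 ± 0.13. None of 10 genes for the silencing of repeats was measured. Of the 5 root markers, AT1G66280 (BGLU22) was called higher, at 1.78 ± 0.21, and AT3G09260 (PYK10) lower, at -0.67 ± 0.12. Root markers thus gave no shift in 1 direction, and their part in the result was not tested.

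The comparison of crf6 with WT asks what changes when CRF6 is mutated, and none of the 51 genes passed its test. Limma called 0 of 51 with H2O2, with BA and untreated, where 0% of all genes were called in each, and 0 of 51 over the mean of the conditions, where 0.574% of all genes were called. At an unadjusted p under 0.05 there was 1 of the 51 with H2O2 and none in the other 3 comparisons, where 6.90% of all genes had such a p with H2O2, 4.51% with BA, 5.17% untreated and 12.1% over the mean. Medians of the 51 genes were 0.06 with H2O2, 0.01 with BA, -0.04 untreated and 0.02 over the mean. No gene had all 6 crf6 arrays above or all 6 below the WT arrays, where 0.767% and 0.393% of all genes did. The largest difference was that of AT2G07695 with H2O2, at 4.09 and 4.35 in crf6, against 3.45 and 3.60 in WT. Its arrays did not overlap, yet the difference of 0.69 ± 0.23 had a limma adjusted p of 0.545. Over the mean of the conditions the largest was AT2G07691 at -0.34 ± 0.16, with a limma adjusted p of 0.419. The largest with BA was again AT2G07691, at -0.47 ± 0.28, and untreated it was AT2G07774, at 0.51 ± 0.27.

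Treatment with H2O2 asks for the response to oxidative stress. In CRF6oe limma called 0 of 51 against untreated, where 2.62% of all genes were called, and 19 of 51 had an unadjusted p under 0.05, where 18.6% of all genes did. The median of the 51 genes was 0.43, against 0.05 for all genes. Of the 51, 46 were above 0, a count given without the share of all genes, and these genes share the same arrays. In 23 of the 51 both H2O2 arrays lay above both untreated arrays, where 25.9% of all genes did so. The lowest limma adjusted p was 0.0779. AT2G07691 had the largest difference, at 8.76 and 8.38 with H2O2, against 7.56 and 7.99 untreated. The arrays did not overlap, but the difference of 0.79 ± 0.28 had a limma adjusted p of 0.141. Without H2O2 replicate 2 of CRF6oe 4 genes were called, AT2G07708 at 1.00, AT2G07728 at 1.05, AT2G07749 at 1.01 and AT2G07669 at 0.94, with limma adjusted p from 0.0207 to 0.0471. That leaves H2O2 replicate 1 alone on its side, the array that was highest in CRF6oe in 48 of the 51 genes, and the fit then assumes that it varies like the arrays of the other groups.

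In crf6 H2O2 gave 0 of 51 called, where 1.95% of all genes were called, with 1 gene at an unadjusted p under 0.05 and a median of 0.03. In WT it gave 0 of 51, where 2.87% were called, with 1 gene at an unadjusted p under 0.05 and a median of -0.08. The largest differences were those of AT2G07738 in crf6, at 0.63 ± 0.27 with a limma adjusted p of 0.457, and of AT2G07768 in WT, at -0.45 ± 0.19 with a limma adjusted p of 0.323. AT2G07738 had 5.96 and 6.02 with H2O2, against 5.35 and 5.38 untreated, in crf6. AT2G07768 had 7.81 and 7.66 with H2O2, against 8.13 and 8.25 untreated, in WT. In both genes the arrays did not overlap. The same treatment was seen elsewhere in the mitochondrial lists. AT5G51440, of the mitochondrial dysfunction response, was called higher with H2O2 by 2.84 ± 0.25 in CRF6oe, 3.04 ± 0.25 in crf6 and 3.62 ± 0.25 in WT. AT4G10040, of the respiratory chain list, was called higher with H2O2 by 0.79 ± 0.18 in CRF6oe, 0.75 ± 0.18 in crf6 and 1.33 ± 0.18 in WT. Its limma adjusted p was 0.035, 0.0497 and 0.000712, so 2 of these calls lay near the threshold. No other gene of the 12 was called, and the list had medians of -0.07, 0.03 and 0.06.

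The difference of the H2O2 response between CRF6oe and WT was tested directly. Limma called 0 of 51, where 0.574% of all genes were called, and 12 of 51 had an unadjusted p under 0.05, where 13.5% of all genes did. The median difference of responses was 0.48, against 0.05 for all genes. Of the 51, 47 were above 0, a count given without the share of all genes. AT2G07827 had the largest, at 0.98 ± 0.39 with a limma adjusted p of 0.29. AT2G07708 had 0.87 ± 0.31 with a limma adjusted p of 0.25, and without H2O2 replicate 2 of CRF6oe it was the only gene called, at 1.29 ± 0.25 with a limma adjusted p of 0.0399, again with a single array, H2O2 replicate 1, and the spread of the other groups. Between crf6 and WT limma called 0 of 51, where 0% of all genes were called, with 1 gene at an unadjusted p under 0.05 and a median of 0.13. Of all genes 2.9% had such a p.

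Treatment with BA asks for the response to cytokinin. In CRF6oe limma called 0 of 51 against untreated, where 0.212% of all genes were called, and 0 at an unadjusted p under 0.05. The median was -0.22, against 0.02 for all genes, and 4 of 51 were above 0, a count given without the share of all genes. In crf6 limma called 0 of 51, where 0.236% were called, with 1 gene at an unadjusted p under 0.05 and a median of 0.05. In WT it called 0 of 51, where 0.163% were called, with 0 at an unadjusted p under 0.05 and a median of 0.01. The largest differences were -0.61 ± 0.48 for AT2G07673 in CRF6oe, -0.42 ± 0.19 for AT2G07768 in crf6 and -0.40 ± 0.48 for AT2G07673 in WT, with limma adjusted p of 0.841, 0.747 and 0.987. For the difference of the BA response between CRF6oe and WT, limma called 0 of 51, with 0 at an unadjusted p under 0.05 and a median of -0.26. Between crf6 and WT it called 0 of 51, again with 0 at an unadjusted p under 0.05 and a median of 0.04. Of all genes 0% were called in either. An unadjusted p under 0.05 against untreated was found in 7.67% of all genes in CRF6oe, 6.34% in crf6 and 7.22% in WT. For the differences of responses it was found in 4.59% between CRF6oe and WT and in 1.71% between crf6 and WT. The H2O2 and BA comparisons of a genotype share its untreated arrays.

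**Figure D5:**
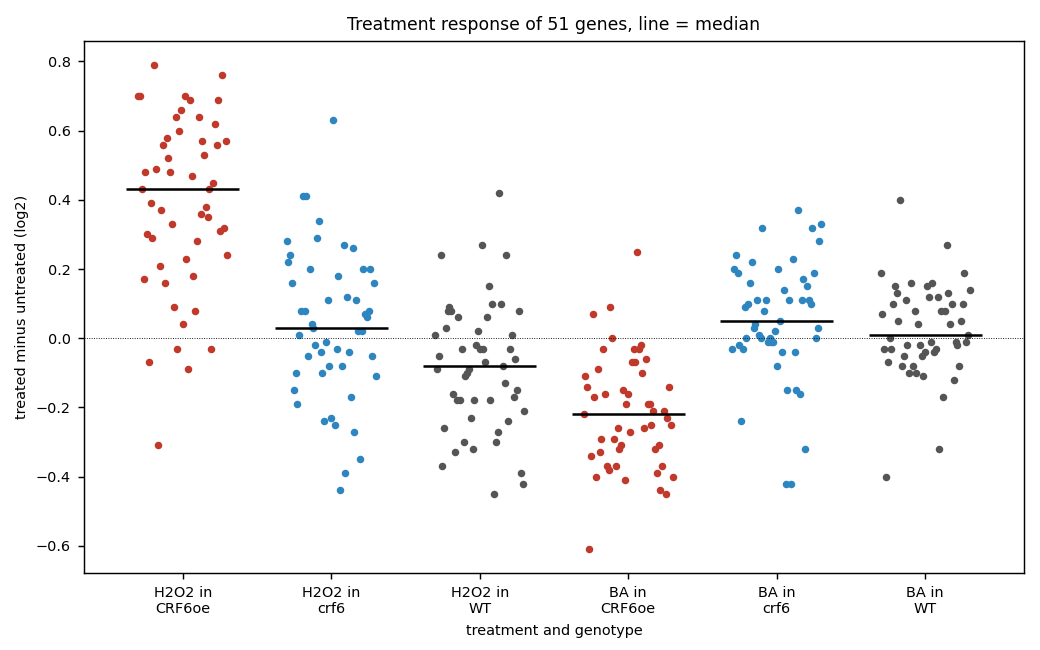
Difference between treated and untreated seedlings (log2, vertical axis) for each of the 51 genes, by treatment and genotype, with a line at the median. The genes lie around 0 in crf6 and WT, while in CRF6oe the median is 0.43 with H2O2 and -0.22 with BA, and no gene was called in any of the 6 comparisons.

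Within CRF6oe the 51 genes varied together from array to array. Their median level was 9.67 and 9.23 with H2O2, 8.73 and 8.90 with BA and 8.87 and 9.20 untreated. H2O2 replicate 1 had the highest of the 6 CRF6oe values in 48 of the 51 genes, where it did so in 24.0% of all genes, and BA replicate 1 had the lowest in 32 of the 51, where it did so in 17.0% of all genes. In crf6 the array medians ran from 7.70 to 7.92 and in WT from 7.66 to 7.92. The medians of H2O2 replicate 2 and untreated replicate 2 of CRF6oe were thus nearly the same, and every CRF6oe median lay above every median of the other 12 arrays. The 18 genes of the mitochondrial genome had array medians of 11.57 to 11.78 in CRF6oe, 11.75 to 11.92 in crf6 and 11.65 to 11.94 in WT.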

How the data were processed

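The log2 values came from a table deposited by the authors, with a single value for each feature on each array, and were used unchanged. The log2 scale was read from their range. Background correction, normalization (joint or separate) and software are not stated per the labels. Features were named through the platform's gene table (17481 of 38408 features listed), and 16697 of the 16722 single-gene features were matched in a RefSeq table for TAIR10.1. The 51 genes and the lists set beside them were chosen with earlier results of these data known. limma 3.58.1 in R 4.3.3 fitted 9 group means to all 18 arrays with 9 residual and 5.63 prior degrees of freedom. P-values were two-sided, adjusted by the Benjamini-Hochberg method over 16722 features, and counted over 16548 genes at an adjusted p under 0.05. Standard errors had medians of 0.230 in comparisons of 2 with 2 arrays, 0.133 in those over 3 conditions and 0.325 in differences of responses. The fit was tested on simulated data. The number of arrays limits the precision. Named with statistics were the genes called in any comparison, the 5 brightest, the 3 dimmest and, for each comparison, the largest difference not called. Other called genes are given by their range per genotype or by the fitted difference alone. Naming by protein similarity was not used here, and no sequences are printed. Replicate numbers were checked as pairs (r of -0.202 to 0.331 over 36 pairs of groups) and did not pair the arrays across all groups. Alternatives were other scalings, filters, feature choices, samples, a replicate block and leaving out each array.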

Additional observations from a re-analysis of the deposited data

How the results depend on the processing

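The number of the 51 genes called between CRF6oe and WT stayed within 1.5 times the reported count under every setting tried. Over the mean of 3 conditions it was 42, with 40 to 43 under the other settings and 40 to 43 without each array. With H2O2 it was 39, with 33 to 41 and 36 to 38, with BA 38, with 35 to 39 and 30 to 36, and untreated 40, with 37 to 40 and 34 to 38. The lowest counts in single conditions under the other settings came from the fit of only the arrays compared. Quantile normalization, which gives all arrays the same spread of values, gave 36 higher and 7 lower over the mean. With the replicate block the counts were 42 over the mean, 40 with H2O2, 37 with BA and 40 untreated, and 0 elsewhere. The pairing check gave a median r of 0.038, with 7 of 36 pairs of groups above 0.1. All 3 pairs of WT groups were among these, at 0.331 for BA and untreated, 0.218 for BA and H2O2 and 0.325 for H2O2 and untreated, so the arrays are not paired across all groups. The labels do not state a pairing within WT, and no gene of the 51 was called with H2O2 or BA against untreated WT, with or without the block. The other 14 comparisons gave 0 under all settings, except without H2O2 replicate 2 of CRF6oe. Leaving out single arrays gave 0 to 4 genes for H2O2 against untreated in CRF6oe and 0 to 1 when this response was set against that of WT. Of 159 single calls none changed direction and 133 were kept under every setting. In single conditions 6 calls with H2O2, 10 with BA and 8 untreated were lost under at least 1 setting. Of the 42 calls over the mean, 2 were lost under at least 1 setting, those of AT2G07689 and AT2G07785. Keeping features with repeated values once and leaving out the CRF6oe arrays were added after the data were seen. With 2 arrays in a group, small differences could not be resolved.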

Other observations

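The complex I gene nad1 of the mitochondrial genome had 7 features paired with it alone, picked here after their values were seen and given with no test. The brightest of them spanned 12.92 to 13.15 in CRF6oe, against 12.60 to 12.79 in WT. The dimmest spanned 5.95 to 7.16 in CRF6oe, against 4.66 to 5.19 in WT, and 2 further dim features spanned 7.98 to 9.09 in CRF6oe, against 5.62 to 6.12 in WT, and 8.82 to 9.64 in CRF6oe, against 7.34 to 7.60 in WT. A bright feature spanned 10.16 to 10.93 in CRF6oe, against 11.55 to 11.76 in WT. Differences between the means of CRF6oe and WT thus ran from -1.27 to 2.54 within the features of nad1.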
